A study of Mus musculus with 9 samples.

Results

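MHC class II molecules present peptides taken up into endosomes to CD4+ T cells. Each is a pair of an alpha and a beta chain, which in the mouse form I-A (H2-Aa with H2-Ab1) and I-E (with the beta chain H2-Eb1); C57BL/6 mice lack a working E alpha chain. The invariant chain Cd74 holds new pairs together and blocks their groove, and the chaperone DM (H2-DMa with H2-DMb1) exchanges its last fragment for a peptide. These genes are switched on together by Ciita, a coactivator that IFN-γ induces and that is recruited to a protein complex on the X and Y boxes of their promoters. Dendritic cells, B cells and macrophages carry class II at rest or after activation, whereas most other cells have it only after IFN-γ. In the brain, microglia and border-associated macrophages are known carriers.

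The levels of these 7 genes, chosen by symbol, were read in the 24421 rows of a table of read counts from 9 mouse libraries, and each symbol occurred in 1 row. SB28 is a glioma line carrying GFP and luciferase that was grown in the brain of C57BL/6 mice. BAL101553 is a prodrug that activates the spindle assembly checkpoint. The libraries form 3 groups of 3, all made from brain of C57BL/6 mice: control (vehicle), BAL101553, and a group labelled astrocytes whose treatment label is also BAL101553. The study's methods describe the first groups as GFP+ tumor cells sorted without CD45 and CD11b, although the labels call them whole tissue; the astrocyte-labelled group is not described in the study's text. Treated tumors were taken later than control tumors, so treatment and time of growth cannot be told apart. Per the study's methods, mice were implanted with tumor cells as young adults. The study's text calls its ex vivo samples biological replicates but describes fewer of them per group than the 3 libraries of the table, so which libraries came from separate animals is not known, and p-values measure the spread between these libraries only.

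Between 22919523 and 34013875 reads were counted per library, and 1 read equalled 0.0290 to 0.0447 CPM (TMM-scaled counts set to a common library size). Intervals and limits below cover counting error only. The astrocyte label was checked against 8 astrocyte markers, whose summed level was 12375 to 15147 CPM in that group and 671 to 965 CPM in the SB28 libraries. The same astrocyte-labelled libraries also held 10496 to 13036 CPM of 6 oligodendrocyte genes, against 15.1 to 20.5 CPM in SB28, and 727 to 1519 CPM of 15 microglia and macrophage genes, against 45.7 to 61.5 CPM. They are therefore called the astrocyte-labelled libraries.

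On mouse genome GRCm38, H2-DMa (17:34119541-34139101, plus strand), H2-DMb1 (17:34153072-34160230, plus), H2-Ab1 (17:34257689-34269419, plus), H2-Aa (17:34282744-34287823, minus) and H2-Eb1 (17:34305867-34316674, plus) lie in that order in the MHC on chromosome 17. Ciita lies at 16:10480059-10528418 on the plus strand.

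Parts of the promoters are shown with letters of the class II boxes marked where they were found. Whether these letters bear on the levels below was not tested. The parts come from the RefSeq promoter table on GRCm38.p6, which holds 250 bases before and 50 after each start. Of the 7 genes 4 were matched in it, whereas H2-Ab1, Cd74 and Ciita were not. Capitals mark TGATTGG, the core of the Y box bound by NF-Y, and TAGNAACNG, letters of the X box bound by RFX, where N is any base. Both strands were searched, and the letters were chosen with these promoters in view. The regions are 17:34287861-34287919 (minus) for H2-Aa, 17:34305768-34305818 (plus) for H2-Eb1, 17:34153089-34153140 (plus) for H2-DMb1 and 17:34122752-34122831 (plus), the last 80 bases before the first of 2 listed starts, for H2-DMa.
H2-Aa: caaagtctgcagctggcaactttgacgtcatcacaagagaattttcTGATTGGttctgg
H2-Eb1: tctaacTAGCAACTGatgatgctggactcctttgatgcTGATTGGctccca
H2-DMb1: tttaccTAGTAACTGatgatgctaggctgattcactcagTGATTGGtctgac
H2-DMa: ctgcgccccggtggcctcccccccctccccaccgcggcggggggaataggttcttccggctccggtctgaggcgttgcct

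In H2-Eb1 the X letters began 93 bases and the Y letters 61 bases before the start, with 23 bases between them. In H2-DMb1 they began 96 and 63 bases before the start, with 24 bases between. An X match ahead of a Y match on the gene's strand occurred in 15 of 32851 promoters (0.0457%), whereas the Y letters alone occurred in 7.82% and the X letters alone in 3.49%. H2-Aa held the Y letters 50 bases before its start and no exact match to the X letters. The same held, at other distances, for H2-Oa, H2-Ob, H2-DMb2 and H2-Eb2. Only these exact letters were searched, so looser forms of either box would not be found. Neither set of letters was found in either listed H2-DMa promoter, and no other part of H2-DMa was searched. The window of the first (17:34122582-34122881) also holds the start of Brd2, a gene on the opposite strand, at 17:34122634. Its letters may therefore belong to the promoter of either gene. The first H2-DMa promoter had a GC content of 73%, which 5.75% of all promoters reached, against 50.7% in H2-Aa, 48% in H2-Eb1 and 47.3% in H2-DMb1. The second H2-DMa promoter lay below all of these, at 39%, which 91.6% of promoters reached.

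In SB28 tumor cells the peptide-presenting chains were at the limit of detection with or without BAL101553, and only H2-DMa was measured well enough for the genome-wide test. H2-Aa had 0, 1 and 2 reads in control 1, 2 and 3 and 1, 1 and 0 in BAL101553 1, 2 and 3. H2-Ab1 had 1, 0 and 1 reads against 1, 0 and 0. H2-Eb1 had 1, 0 and 1 reads against 1 in each BAL101553 library. None of these counts exceeded 3 reads, the number that a count of 0 allows, so no difference between control and BAL101553 was detectable at this depth and no fold change is given.

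H2-DMb1, the beta chain of DM, had 1 read in control 2, 1 in BAL101553 2 and 0 in the other SB28 libraries. Ciita itself had 1, 0 and 1 reads in control and 1, 1 and 0 in BAL101553. Thus neither Ciita nor H2-Aa, H2-Ab1, H2-Eb1 and H2-DMb1 exceeded the detection limit in any of the 6 SB28 libraries.

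Cd74, the invariant chain, lies outside the MHC at 18:60803848-60812652 (plus strand). It had 6, 3 and 5 reads in control and 11, 14 and 3 in BAL101553. Its level was 0.196 ± 0.0789 CPM (SD, n = 3) in control and 0.335 ± 0.232 CPM (SD, n = 3) in BAL101553. BAL101553 1 and 2 lay above all controls and BAL101553 3 below them, so the groups overlapped (exact permutation test of CPM, two-sided, p = 0.5; with 3 against 3 the smallest possible p is 0.1). The exact p of the other 6 genes lay between 0.4 and 1, but all of them except H2-DMa had too few reads for this test to show a difference.

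A few reads of microglia and macrophage genes were also present in the sorted cells. Itgam, which encodes the CD11b used in the sort, had 1, 5 and 3 reads in control and 13, 6 and 2 in BAL101553, and Ptprc, which encodes CD45, had 2 to 8 reads in the 6 libraries. The complement gene C1qb had 14, 10 and 8 reads in control and 14, 13 and 5 in BAL101553. Cd74 stood at 0.337% of its mean astrocyte-labelled level in control and 0.576% in BAL101553, and 10 of the 15 microglia and macrophage genes stood at 1% or less in each group, with a median of 0.493% in control and 0.413% in BAL101553. The part of such cells in the Cd74 reads was not tested. Of the 15 genes, 6 were tested and 1 was called lower with BAL101553, where 6.09% of all genes were. It was the microglial receptor P2ry12 (1.73 ± 0.861 CPM in control and 0.457 ± 0.116 CPM in BAL101553, SD, n = 3). Its log2 fold change was -1.88 (SE 0.44, edgeR adjusted p = 0.0313). This call was lost on leaving out any 1 of the 6 libraries other than control 2 (adjusted p 0.0597 to 0.0896).

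**Figure D1:**
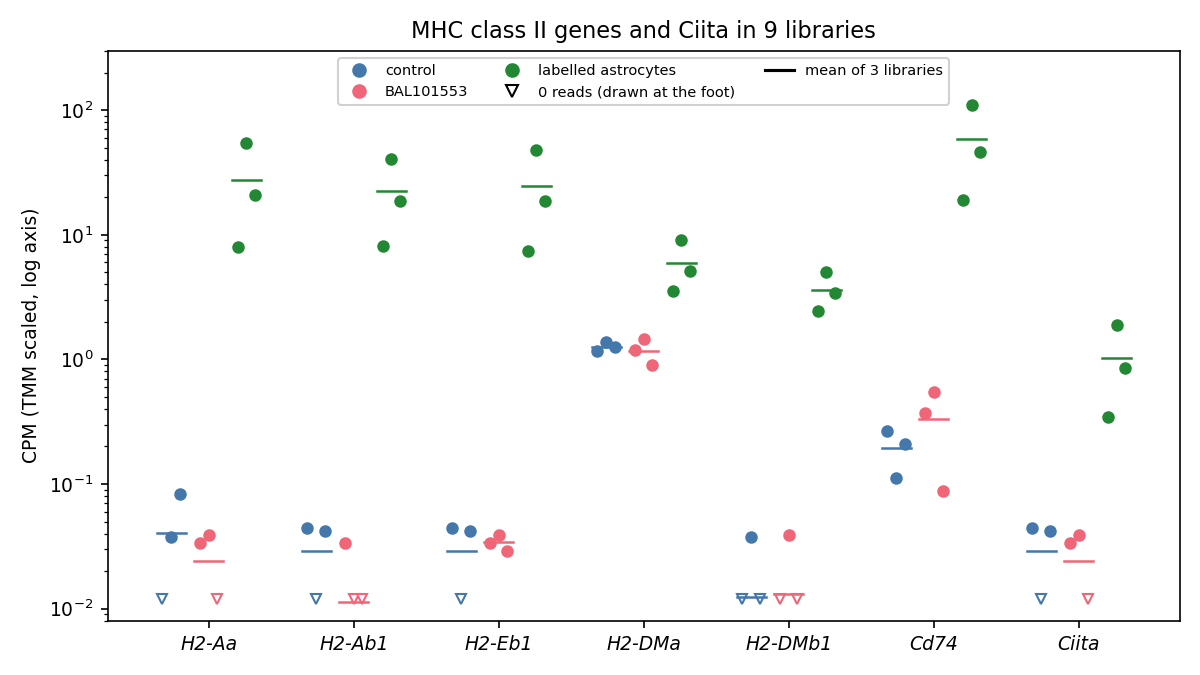
CPM of the 7 genes (log axis) in each of 9 libraries, with a line at the mean of 3; open triangles at the foot mark libraries with 0 reads. In SB28 only H2-DMa lies near 1 CPM in every library, Cd74 lies between 0.0871 and 0.548 CPM and each of the 7 genes is higher in each astrocyte-labelled library than in any SB28 library.

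H2-DMa, the alpha chain of DM, was the exception. It had 26, 37 and 30 reads in control and 35, 37 and 31 reads in BAL101553. This equalled 1.26 ± 0.108 CPM in control and 1.18 ± 0.274 CPM in BAL101553 (SD, n = 3), and the groups overlapped. The log2 fold change was -0.10 (SE 0.29, edgeR quasi-likelihood test, adjusted p = 0.829). On a scale per kb of exon, the mean level of H2-DMa was 0.366 in control and 0.341 in BAL101553, above Cd74 at 0.117 and 0.1997.

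The H2-DMa value carries a limit. Brd2, a chromatin reader gene on the opposite strand (17:34112023-34122634), overlaps the H2-DMa span by 3094 bases, of which 360 are exonic in both genes. It had 5008 to 9304 reads in the 9 libraries, and H2-DMa had 3.34 to 5.97 reads per 1000 Brd2 reads in SB28 and 16.4, 43.8 and 26.6 in the astrocyte-labelled libraries. The libraries were stranded, but whether the counting used strand is not stated, so reads of the 2 genes cannot be told apart with certainty.

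Of the 7 genes, 1 passed the filter on low counts in this comparison and 0 were called in either direction by edgeR or DESeq2 (0 at an unadjusted p under 0.05). Across all 12633 genes tested, 8.64% were called higher and 6.09% lower with BAL101553.

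In the astrocyte-labelled libraries every gene of the set was present, from Cd74 as the highest to Ciita as the lowest. Cd74 had 603, 3090 and 1208 reads in libraries 1, 2 and 3 (58.3 ± 46.2 CPM, SD, n = 3). H2-Aa had 251, 1531 and 540 reads (27.6 ± 23.8 CPM). H2-Ab1, its partner in I-A, had 256, 1139 and 485 reads (22.3 ± 16.4 CPM). For these 3 genes library 2 was the highest and library 1 the lowest, and the lowest still lay far above every SB28 library.

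H2-Eb1 had 237, 1348 and 482 reads (24.6 ± 20.7 CPM, SD, n = 3). H2-DMa had 112, 258 and 133 reads (5.92 ± 2.88 CPM) and H2-DMb1 78, 142 and 89 reads (3.64 ± 1.29 CPM). Ciita had 11, 53 and 22 reads (1.02 ± 0.778 CPM). The order of the libraries was again 2, 3 and 1 for each of them. H2-DMb1 has a near-identical neighbor, H2-DMb2, with 7, 10 and 8 reads, so the split between these copies is uncertain.

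Per kb of exon the order of mean levels in these libraries was Cd74 (34.7 ± 27.5, SD, n = 3), H2-Eb1 (12.6 ± 10.7), H2-Ab1 (8.70 ± 6.39), H2-Aa (7.27 ± 6.28), H2-DMb1 (2.16 ± 0.769), H2-DMa (1.72 ± 0.835) and Ciita (0.107 ± 0.0816). Neighbors in this order differed by less than the larger of their SDs, except H2-DMa and Ciita. These SDs hold a spread that the genes share, since library 2 was the highest and library 1 the lowest for each. Within library 1 the order was the same, with Cd74 at 11.3, H2-Eb1 at 3.84, H2-Aa at 2.08 and H2-DMb1 at 1.46. In library 2 the order was also the same (65.0, 24.5, 14.2 and 2.99 for these genes). The transactivator was thus the lowest of the set per length.

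Set against the BAL101553 SB28 libraries, which carry the same treatment label, 7 of 7 genes were called higher. By edgeR's test their adjusted p lay between 1.17e-05 for H2-DMb1 and 0.00113 for Ciita. Of all 15314 genes tested, 46.3% were called higher and 38.9% lower, and 6 of the 7 passed the filter on low counts only through the astrocyte-labelled libraries, so the count is a description. H2-DMa, measured in both groups, was higher by a log2 fold change of 2.31 (SE 0.39, adjusted p = 0.00068), and Cd74 by 7.47 (SE 0.86, adjusted p = 6.45e-05). In bulk RNA, fewer cells of a type and less RNA per cell cannot be told apart.

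Pooled over the 3 libraries of each group, H2-DMa was 5.09 times higher (95% counting interval 4.11 to 6.36) and Cd74 182 times (126 to 275). Ciita, with 86 reads against 2, was 44.8 times higher (12.04 to 376). H2-Eb1, with 2067 reads against 3, was 718 times higher (245 to 3486). For H2-Aa (2322 against 2), H2-Ab1 (1880 against 1) and H2-DMb1 (309 against 1) the ratios of 1210, 1960 and 322 rest on so few SB28 reads that their lower bounds of 334.7, 351 and 57.4 are the more useful values.

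Astrocyte-labelled library 2 set much of these sizes. Without it the ratio was 101 for Cd74, 25.6 for Ciita, 615 for H2-Aa, 1152 for H2-Ab1 and 372 for H2-Eb1, and it was 3.70 for H2-DMa and 260 for H2-DMb1. The lower bounds for H2-Aa, H2-Ab1 and H2-DMb1 then became 169.6, 206 and 45.9. Each of the 7 genes was still called higher. In the full fit all but H2-DMa passed the filter on low counts only through the astrocyte-labelled libraries. These calls are therefore no sign of stability.

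The same 3 libraries were also set against control, which differs in both label and treatment, so this comparison shares its samples with the last. Of the 7 genes 6 were tested, and 6 were called higher, where 48.8% of 15207 genes were; all of the 6 but H2-DMa again passed the filter only through the astrocyte-labelled libraries. H2-DMa was higher by a log2 fold change of 2.18 (adjusted p = 0.00046, edgeR) and Cd74 by 8.17 (adjusted p = 3.07e-05). Ciita fell under the filter in this fit, and its pooled reads were 86 against 2 (ratio 36.6, 95% counting interval 9.84 to 307), or 33 against 2 without astrocyte-labelled library 2 (20.95, 5.36 to 180.2).

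Among themselves the astrocyte-labelled libraries differed more in class II genes than in most genes. Between library 2 and library 1 the level differed 6.84 times for H2-Aa (95% counting interval 5.98 to 7.84), 6.38 times for H2-Eb1 (5.55 to 7.35) and 5.74 times for Cd74 (5.26 to 6.28). Ciita followed at 5.40 times (2.79 to 11.5) and H2-Ab1 at 4.99 times (4.35 to 5.73). Over 15177 genes the median of this ratio was 0.992, with 5% of genes below 0.765 and 5% above 1.49. A ratio as high as that of H2-Aa was reached by 0.119% of genes, H2-Aa included. Libraries 2 and 1 are the highest and the lowest for these class II genes, so this share is a description.

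The DM genes moved less between the same libraries. H2-DMa was 2.58 times higher in library 2 than in library 1 (2.06 to 3.25) and H2-DMb1 2.04 times (1.54 to 2.73). Neither interval reached those of H2-Aa, H2-Ab1, H2-Eb1 or Cd74, but the wide interval of Ciita (2.79 to 11.5) overlapped that of H2-DMa. The DO genes H2-Oa and H2-Ob, whose product inhibits DM, stood at 2.33 times (1.16 to 4.91) and 1.75 times (1.11 to 2.77).

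Markers of other cells moved with these libraries as well. All 15 microglia and macrophage genes were highest in library 2, with ratios of 1.64 to 2.85 and a median of 2.21, whereas 0 of 8 astrocyte genes were highest there (median 0.821) and the 6 oligodendrocyte genes had a median of 1.05. The 5 border-associated macrophage genes had a median of 2.001 and a range of 0.974 to 3.14. The 7 dendritic cell genes had a median of 2.03 and ranged from 0.42 for Clec9a (8, 3 and 9 reads) to 3.44 for Itgax, which encodes CD11c (15, 46 and 15 reads); Flt3 stood at 0.754. B cell genes stayed low, with a sum of 1.23 to 2.004 CPM over 5 genes, as did T cell genes, with 1.14 to 2.23 CPM over 5 genes, most of it Cd4 (34, 56 and 48 reads).

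The summed level of Cd74, H2-Aa, H2-Ab1 and H2-Eb1 was 42.5, 251 and 105 CPM in libraries 1, 2 and 3. Divided by the summed level of the 15 microglia and macrophage genes (727, 1519 and 1134 CPM), it was 0.0584, 0.165 and 0.0923. Divided by Csf1r, the receptor that microglia need to survive, it was 0.259, 0.741 and 0.440. The 4 genes thus differed between libraries by more than the list did, and the part of each cell type in this was not tested.

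**Figure D2:**
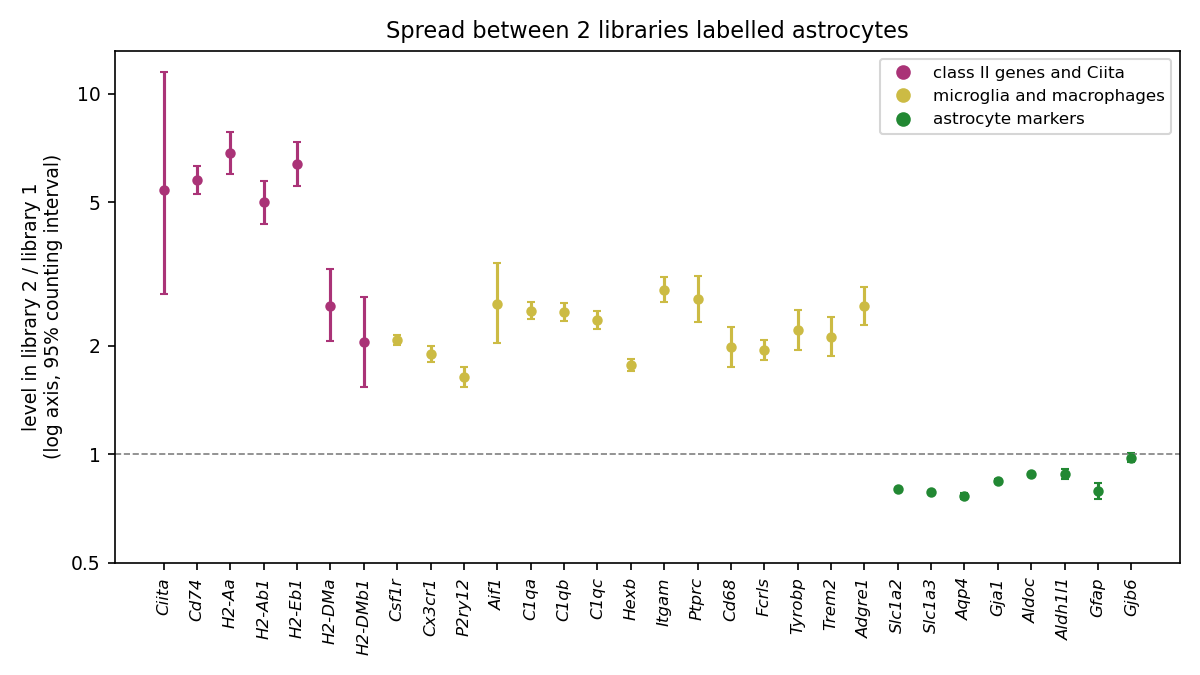
Level in astrocyte-labelled library 2 divided by that in library 1 (log axis; bars, 95% counting intervals) for the 7 genes, 15 microglia and macrophage genes and 8 astrocyte genes. Ciita, Cd74, H2-Aa, H2-Ab1 and H2-Eb1 lie at 4.99 to 6.84, H2-DMa and H2-DMb1 among the microglia and macrophage genes at 1.64 to 2.85, and the astrocyte genes below 1.

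The genes outside the set with profiles most like 3 of its genes over all 9 libraries were searched. The measure was the root-mean-square difference of centred log2 CPM, where 0 is an identical profile. Nearest to Cd74 were C1qb (0.5003), the signalling adaptor Tyrobp (0.517) and Fgd2 (0.530). Of the set itself, H2-Eb1 lay closer to Cd74 than these, at 0.494, and the rest lay farther. Among the nearest to H2-Ab1 were Tyrobp (0.446) and C1qc (0.453). Within the set H2-Ab1 lay at 0.242 from H2-Eb1 and 0.391 from H2-Aa, closer than Tyrobp and C1qc, but at 0.585 from Cd74, 1.196 from H2-DMb1, 2.10 from Ciita and 2.64 from H2-DMa. Nearest to Ciita, whose counts were low, were Cd200r1 (0.332), H2-Oa (0.361) and Itgax (0.371). Of the set itself, H2-DMa lay nearest to Ciita, at 0.613, but at 2.48 from Cd74. All of these profiles share the step between the SB28 and the astrocyte-labelled libraries. The measure does not scale the size of this step, which the prior count makes smaller for genes with few reads such as Ciita. Distances between genes of unlike level therefore also reflect their level.

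The other class II chains were, like H2-Aa, H2-Ab1 and H2-Eb1, at the limit of detection in SB28. Of H2-Ea-ps, H2-Eb2, H2-DMb2, H2-Oa and H2-Ob, 0 of 5 were tested between BAL101553 and control, and their sum did not exceed 0.0447 CPM in any SB28 library. In the astrocyte-labelled libraries H2-Oa had 13, 27 and 20 reads and H2-Ob 34, 53 and 33. Both were called higher than in BAL101553 SB28 cells, as 46.3% of 15314 genes were. Both passed the filter on low counts only through the astrocyte-labelled libraries, so these calls are a description. H2-Ob, at 0 reads in BAL101553, was at least 41.7 times higher (120 reads against a floor of 3 counts over the group), or 34.7 times without astrocyte-labelled library 2.

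The proteins that bind class II promoters beside Ciita were expressed in SB28. They are the RFX subunits Rfx5, Rfxap and Rfxank, Creb1, and the NF-Y subunits Nfya, Nfyb and Nfyc, with a sum of 204 to 222 CPM in SB28 and 212 to 224 CPM in the astrocyte-labelled libraries. Between BAL101553 and control 0 of 7 were called, where 8.64% of all genes were called higher and 6.09% lower. Their median log2 fold change was 0.17 (all genes, 0.016). Rfx5 had the highest value, 0.49 (SE 0.20, adjusted p = 0.137), and Nfyb the lowest, -0.43 (SE 0.17, adjusted p = 0.119). Against BAL101553 SB28 cells the astrocyte-labelled libraries were higher in 1 of 7, Rfxank (46.9 ± 1.12 against 14.1 ± 0.581 CPM, SD, n = 3), and lower in Nfya and Nfyc. In this comparison 46.3% of all genes were called higher and 38.9% lower.

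The IFN-γ pathway that induces Ciita was also expressed in SB28, with a sum over 6 genes of 574 to 643 CPM, against 309 to 332 CPM in the astrocyte-labelled libraries. With BAL101553, 2 of 6 were called higher and 0 lower, where 8.64% and 6.09% of all 12633 genes tested were. The receptor chain Ifngr1 was at 50.7, 46.8 and 49.2 CPM in control and 60.1, 62.5 and 68.6 CPM in BAL101553, without overlap (log2 fold change 0.39, SE 0.091, edgeR adjusted p = 0.0311). The kinase Jak2 was at 43.2, 44.3 and 43.0 CPM in control and 54.7, 56.0 and 54.0 CPM in BAL101553, again without overlap (0.34, SE 0.082, adjusted p = 0.0330).

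Ifngr1 was no longer called without control 1, 2 or 3 or BAL101553 3 (adjusted p up to 0.110), and Jak2 without any 1 of the 6 libraries (0.0547 to 0.125). The remaining genes of the list were not called by edgeR. The transcription factor Irf1, which acts on the Ciita promoter, had a log2 fold change of 0.37 (SE 0.14, adjusted p = 0.115), Jak1 -0.23 (adjusted p = 0.0915; 0.0410 by DESeq2) and Ifngr2 -0.19 (adjusted p = 0.297). The median of the list was 0.09. Compared with BAL101553 SB28 cells, Ifngr2, Jak1 and Irf1 were lower in the astrocyte-labelled libraries and Jak2 higher (38.9% of all genes were called lower and 46.3% higher). Irf1 stood at 16.9 ± 0.699 CPM there and at 82.7 ± 13.2 CPM in BAL101553 SB28 cells (SD, n = 3; log2 fold change -2.33), while Ciita had the opposite order.

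**Figure D3:**
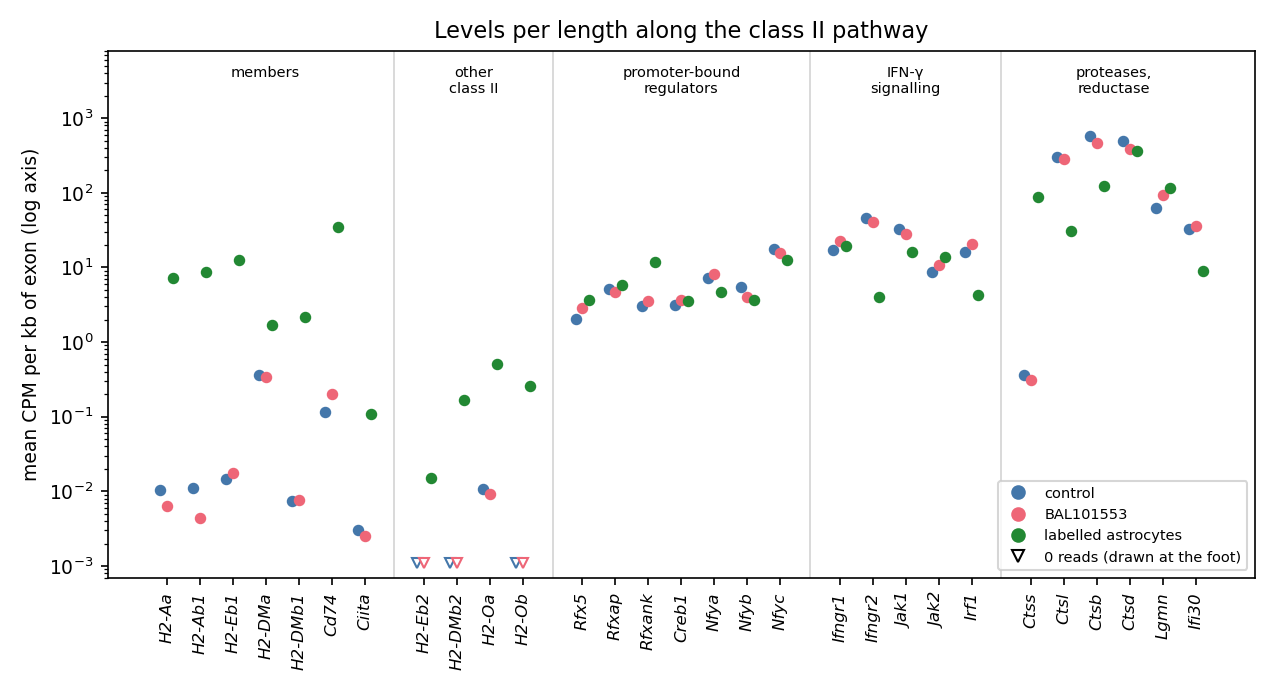
Mean CPM per kb of exon (log axis, n = 3) of the 7 genes, other class II genes, promoter-bound regulators, IFN-γ signalling genes and the proteases and reductase in control, BAL101553 and astrocyte-labelled libraries; open triangles mark groups with 0 reads. In SB28 the class II genes and Ciita lie below 1 while the regulators and the IFN-γ genes lie above it.

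Of 6 endosomal enzymes that make peptides and cut the invariant chain, 1 was called higher and 3 lower in the astrocyte-labelled libraries than in BAL101553 SB28 cells. Ctsd and Lgmn were not called (adjusted p = 0.419 and 0.0757, edgeR). Of all genes, 46.3% were called higher and 38.9% lower in this comparison. With BAL101553, 1 of 6 was called higher in SB28 and 0 lower (median log2 fold change -0.17), where 8.64% and 6.09% of all genes were. Lgmn, an asparagine-specific protease, was at 134, 162 and 144 CPM in control and 194, 231 and 227 CPM in BAL101553 (log2 fold change 0.58, SE 0.11, edgeR adjusted p = 0.0185), without overlap. This call was lost without control 1, control 3 or BAL101553 3 (adjusted p 0.0649, 0.0815 and 0.0558). Ctsd had a log2 fold change of -0.35 (SE 0.098, adjusted p = 0.0514 by edgeR and 0.00517 by DESeq2) and Ctsb of -0.28 (SE 0.11, adjusted p = 0.130).

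Ctss, the protease that makes the last cut of the invariant chain in antigen-presenting cells, had 7 to 17 reads in SB28 and 2059, 5129 and 2756 reads in the astrocyte-labelled libraries. It was called higher there than in BAL101553 SB28 cells (log2 fold change 8.13, SE 0.54, edgeR adjusted p = 2.44e-06), and Ctsl, Ctsb and the reductase Ifi30 were called lower. Ctsl, which takes the place of Ctss in thymic epithelium, was at 1821 ± 166 CPM in BAL101553 SB28 cells and 201 ± 14.3 CPM in the astrocyte-labelled libraries (SD, n = 3).

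Among partners of class II on the cell surface, 3 of 5 genes measured were tested between BAL101553 and control. Of these 0 were called, where 8.64% of all genes were called higher and 6.09% lower. Lag3, an inhibitory receptor for class II, had 17, 17 and 22 reads in control and 53, 33 and 42 in BAL101553 (log2 fold change 0.90, SE 0.31, edgeR adjusted p = 0.0858). The costimulatory ligand Cd86 had 0 or 1 reads in each SB28 library and 115, 237 and 159 in the astrocyte-labelled libraries. Its relative Cd80 had 26 to 193 reads in SB28 and was called lower in the astrocyte-labelled libraries than in BAL101553 SB28 cells (1.202 ± 0.277 against 3.70 ± 1.66 CPM, SD, n = 3). Cd4 and Lag3 were called higher there (of all genes 46.3% were called higher and 38.9% lower). Cd4 had 0 reads in each BAL101553 library and passed the filter on low counts only through the astrocyte-labelled ones.

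**Figure D4:**
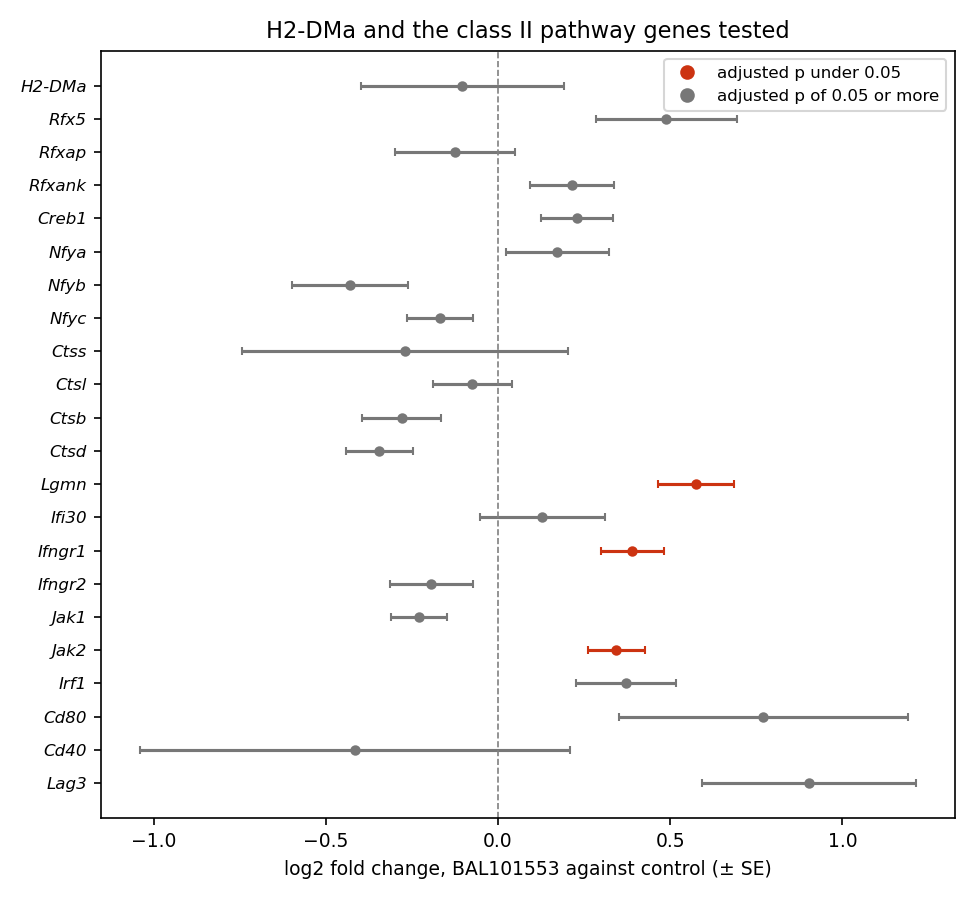
Log2 fold change of H2-DMa and 21 of the pathway genes tested between BAL101553 and control (points; bars, SE). Red marks the 3 genes with an adjusted p under 0.05, Lgmn, Ifngr1 and Jak2, and grey the rest, with H2-DMa at -0.10.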

How the data were processed

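The authors sorted the SB28 cells, made stranded libraries, mapped reads with TopHat and counted them with HTSeq and featureCounts, per the study's methods; the submitters' processing notes name HTSeq 0.6.1 and build mm10. Which counter, annotation and strand setting made the table is not given in the sources used here. The deposited values are whole-number counts per gene, not normalized. Dates had replaced 27 gene names; H2-Ea and March1 were not analysed here.

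Counts were tested in R 4.3.3 with edgeR 4.0.16: filterByExpr on the groups compared, TMM, quasi-likelihood test, two-sided, Benjamini-Hochberg adjustment over all genes tested, threshold 0.05. SE was taken as log2 fold change over the root of the F statistic. Genes under the filter were compared by an exact permutation test of CPM. Pooled-count ratios carry 95% exact counting intervals. Profiles used log2 CPM (prior count 2), and lengths and positions GENCODE release 21. Alternatives were DESeq2 1.42.0, RLE scaling, total library size, no filter beyond 1 count, all 9 libraries in one model, a replicate block and each library left out. Scripts were tested on simulated data.

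Named were all 7 genes, called genes and up to 4 others of each pathway list, the 3 most similar genes for Cd74, H2-Ab1 and Ciita, and cell type markers; single marker genes, Brd2 and the motif letters were chosen after values were seen. A gene of the IFN-γ list and 1 similar gene are not reported here, though counts, sums and medians use each list whole. The members and lists were chosen with earlier results of these data known.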

Additional observations from a re-analysis of the deposited data

How the results depend on the processing

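The 13 tested differences of the 7 genes between the astrocyte-labelled libraries and either SB28 group kept their direction and their call under each of their 12 alternatives (156 fits, largest adjusted p 0.00671); for all but the H2-DMa differences the low-count filter was passed only through the libraries in which the gene is high, so this is no sign of stability. Against control 7 of the 7 were called in place of 6 under alternatives whose filter kept Ciita. H2-DMa between BAL101553 and control had a log2 fold change of -0.28 to 0.063 when 1 library was left out, with the sign turned to 0.063 (adjusted p = 0.912) without BAL101553 3, and was never called. Whether replicate numbers pair the libraries is not stated. Deviations from the group mean correlated weakly between control and BAL101553 libraries of the same number (0.102, 0.00602 and 0.113 for numbers 1, 2 and 3). Libraries of different numbers were not compared, so these values do not decide it. With the replicate block H2-DMa had an adjusted p of 0.821, and Ifngr1 and Jak2 were not called (0.0588 and 0.0668); no call of the 7 genes changed. Total library size in place of TMM moved the median log2 fold change of all genes from 0.18 to 0.39 between the astrocyte-labelled and BAL101553 libraries and from 0.25 to 0.56 against control. Depth limits H2-Aa, H2-Ab1, H2-Eb1, H2-DMb1 and Ciita in SB28, where 3 reads or fewer were counted.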
